A study of Mus musculus with 6 samples.

Results

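The genes described here encode the proteins of the mitochondrial ribosome. They were taken by name from the gene count file as every protein-coding gene whose symbol starts with Mrpl or Mrps followed by a number, which gave 78 of 54532 genes. Of these, 49 are Mrpl genes, named for the large subunit, and 29 are Mrps genes, named for the small subunit. A further 5 genes with such names are annotated as processed pseudogenes and were not members. RNA was sequenced from 6 cultures of mouse CD4+ T cells, sorted with magnetic beads from the spleen (male C57BL/6 mice, 6 to 8 weeks old) and grown for 72 h on plate-bound anti-CD3 with anti-CD28, IL-2, IL-12p70 and anti-IL-4, the conditions that give T helper 1 (Th1) cells. The Th1 group (n = 3) received vehicle, 0.1% DMSO, and the ALX-5407 group (n = 3) received 500 nM ALX-5407, a small molecule that blocks GlyT1 (Slc6a9), a carrier of glycine into cells. No genotype differs between the groups, and every culture was stimulated, so resting cells were not compared. The sources differ in the length of exposure: the deposited design text gives 72 h and the study's methods give a shorter time.

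The mitochondrial ribosome translates the messenger RNAs of the mitochondrial genome, which encode core subunits of the respiratory chain and ATP synthase. Its ribosomal RNAs are made inside the organelle, whereas all of its proteins are encoded in the nucleus, translated in the cytosol and imported. The small subunit binds mRNA and decodes it, and the large subunit forms peptide bonds and passes the growing chain to the inner membrane. Many of the proteins have homologues in bacterial ribosomes and the others are specific to mitochondria. T cells build up mitochondria and mitochondrial translation after activation.

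The libraries held between 30801753 and 36727788 counted reads. All 8 T cell markers (Cd3d, Cd3e, Cd3g, Cd4, Trac, Trbc1, Trbc2 and Tbx21) were above 77 CPM (reads relative to library size, scaled with TMM factors) in every library. With ALX-5407, 5 of the 8 were lower and 1 higher (median log2 fold change -0.26): Cd4 (-0.46), Cd3d (-0.39), Cd3g (-0.35), Trbc2 (-0.30) and Trbc1 (-0.19) were called lower and Tbx21 (0.34) higher. They summed to between 2056 and 2176 CPM in Th1 cultures and between 1683 and 1782 CPM with ALX-5407, and their part in the results was not tested. Of 20 markers of other spleen cells, 7 passed the filter on low counts, and their highest value in any library was 5.85 CPM. S100a8, S100a9 and Siglech were at 0 in every library. The 20 markers summed to between 16.2 and 17.3 CPM in Th1 cultures and between 17.1 and 18.1 CPM with ALX-5407. Among those tested the B cell genes Ms4a1 (log2 fold change 1.27) and Cd79a (0.67) were higher with ALX-5407 and Cd8a (-0.80) was lower, and their part in the results was not tested. Since whole cultures were sequenced, fewer cells of a type and less RNA per cell cannot be told apart.

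The promoters of 4 members are shown because these were the largest fall and the largest rise of each subunit. Each sequence is RefSeq's, on GRCm38.p6, printed 5′ to 3′ on the strand of the gene, and runs from 250 bases before to 50 bases after the annotated start. Capitals mark short sequences often found at promoters of nuclear genes for mitochondrial proteins, searched on both strands: the ETS core CCGGAAG (bound by GABP, also called NRF2), an NRF1 core GCGCATGC and a YY1 core ATGGCGG. The Mrpl33 promoter (chr5:31613701-31614000, + strand) holds an NRF1 and an ETS match, the Mrpl28 promoter (chr17:26123253-26123552, + strand) holds none of the cores, the Mrps26 promoter (chr2:130563507-130563806, + strand) holds an ETS match and the Mrps30 promoter (chr13:118387203-118387502, - strand) holds a YY1 match.
Mrpl33: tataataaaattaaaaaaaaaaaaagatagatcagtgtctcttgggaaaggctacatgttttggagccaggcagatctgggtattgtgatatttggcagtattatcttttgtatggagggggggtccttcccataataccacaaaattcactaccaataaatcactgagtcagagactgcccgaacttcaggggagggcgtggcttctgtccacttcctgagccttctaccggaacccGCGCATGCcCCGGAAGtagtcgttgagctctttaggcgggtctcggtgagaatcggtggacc
Mrpl28: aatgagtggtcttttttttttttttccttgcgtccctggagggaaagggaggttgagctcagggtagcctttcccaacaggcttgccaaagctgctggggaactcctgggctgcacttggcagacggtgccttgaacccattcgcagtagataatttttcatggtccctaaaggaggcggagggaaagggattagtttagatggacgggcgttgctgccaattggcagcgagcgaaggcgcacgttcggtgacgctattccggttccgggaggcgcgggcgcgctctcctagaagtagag
Mrps26: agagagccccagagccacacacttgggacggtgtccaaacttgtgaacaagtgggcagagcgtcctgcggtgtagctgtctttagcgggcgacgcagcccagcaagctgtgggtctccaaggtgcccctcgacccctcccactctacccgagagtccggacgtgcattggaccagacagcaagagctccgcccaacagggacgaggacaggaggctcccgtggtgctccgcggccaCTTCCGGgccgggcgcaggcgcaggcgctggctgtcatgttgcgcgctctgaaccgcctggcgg
Mrps30: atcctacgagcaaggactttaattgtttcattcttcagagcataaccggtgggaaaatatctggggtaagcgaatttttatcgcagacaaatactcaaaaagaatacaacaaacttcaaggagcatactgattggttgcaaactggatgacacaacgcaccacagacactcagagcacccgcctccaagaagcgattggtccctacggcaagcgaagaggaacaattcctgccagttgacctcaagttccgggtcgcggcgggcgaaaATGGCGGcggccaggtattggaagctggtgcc

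RefSeq promoters were found for 69 members, which have 75 promoters between them, and 37 of the 75 (49.3%) held at least 1 of the cores, against 27.0% of the 12495 promoters of protein-coding genes tested and 14.1% of all 32851 promoters. The ETS core was in 34.7% of the members' promoters and in 17.4% of those of protein-coding genes tested. By direction, 9 of 20 promoters of members called higher, 12 of 24 of members called lower and 15 of 30 of members not called held a match. These are counts of promoters, not of genes: Mrpl2 (called higher) and Mrpl48 (called lower) have several each. The promoters of Mrpl2 overlap each other, and none held a match. Of the 8 members' promoters with the NRF1 core, 7 belonged to large subunit genes, which had 48 of the 75 promoters. The core was in 14.6% of large subunit promoters, 3.7% of small subunit promoters and 5.17% of those of protein-coding genes tested. The large subunit genes were Mrpl10 (called higher), Mrpl9, Mrpl32, Mrpl33 and Mrpl39 (called lower), and Mrpl17 and Mrpl22 (not called). A match is a description of the letters and says nothing of binding.

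Of the 78 members, 77 passed the filter on low counts and were tested. The genes of this 1 complex did not move together. With ALX-5407, 21 members were called higher and 23 lower at an adjusted p under 0.05 (edgeR's quasi-likelihood test, Benjamini-Hochberg over 15938 genes), and 33 were not called. Over all genes tested, 24.5% were called higher and 23.2% lower, so that the members' 27.3% and 29.9% stood near the background. Among 6802 protein-coding genes in the same range of mean counts, 34.3% were called higher and 24.2% lower (58.5% in either direction, against 57.1% of the members), with a median log2 fold change of 0.071. No member was a differentially expressed gene by the study's fold threshold (absolute log2 fold change over 1), against 3.36% of all genes above and 6.68% below it. At an unadjusted p under 0.05, 24 members were higher and 25 lower.

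The size of the changes was small. Log2 fold changes of the tested members ran from -0.87 to 0.58, that is from 1.83-fold lower to 1.49-fold higher, and 37 of the 77 lay above 0, where 50.5% of all genes tested did. They had quartiles at -0.25 and 0.26 and a median of -0.02, against a median of 0.0053 over all genes tested. Their SD was 0.331, and that of protein-coding genes in the same range of counts was 0.485. In 23 members every ALX-5407 culture was above every Th1 culture, and in 28 every one was below, where 28.4% and 27.1% of all genes tested did so. The split of calls moved with the scaling of the libraries: 26 higher and 18 lower with total counts, 14 and 27 with upper quartile scaling, and 16 and 27 with protein-coding genes alone. Another scaling factor moves all genes alike: the members' median lay 0.026 log2 units below that of all genes tested with TMM, total counts and upper quartile scaling. Without ALX-5407 replicate 1 the counts were 10 and 20, and without ALX-5407 replicate 3 they were 23 and 13.

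**Figure D1:**
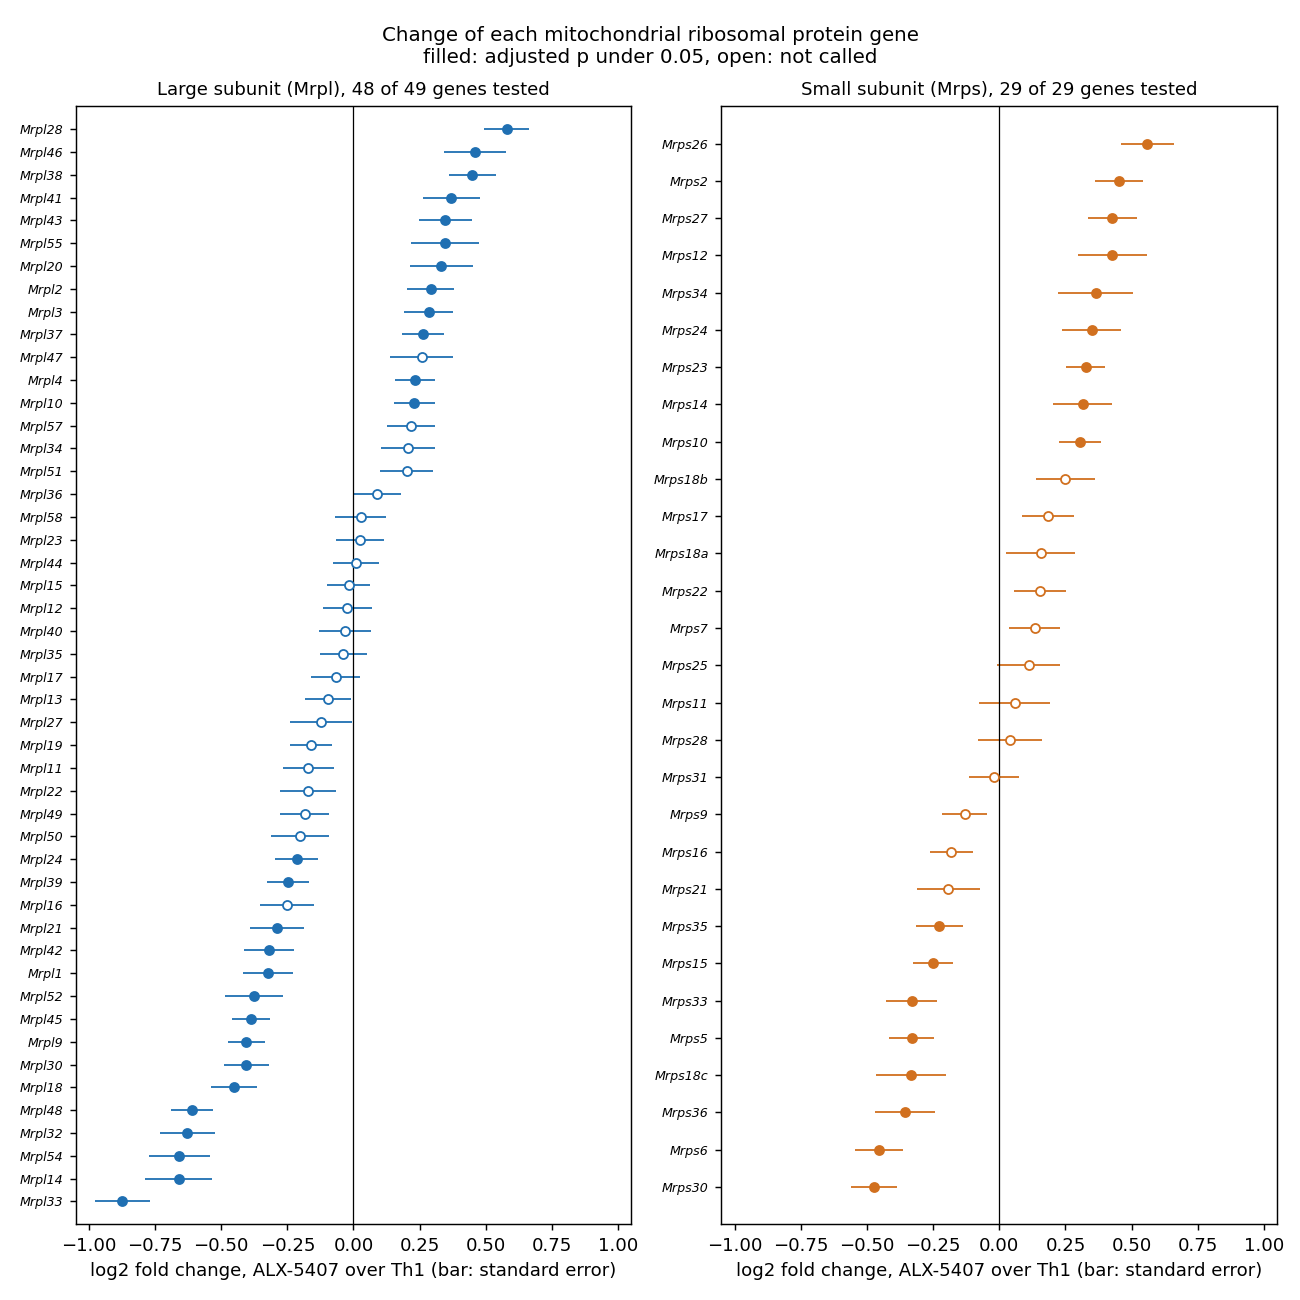
Log2 fold change (x axis, ALX-5407 over Th1) of each tested Mrpl gene (left, 48 genes) and Mrps gene (right, 29 genes), in order of change. Points are estimates from 3 cultures a group, bars are standard errors, and filled points passed an adjusted p of 0.05. Values run from -0.87 to 0.58 in the left panel and from -0.47 to 0.56 in the right.

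Among the large subunit genes, 12 were called higher, 15 lower and 21 in neither direction, of 48 tested. The largest fall was that of Mrpl33 (ENSMUSG00000106918, chr5:31596935-31664384, + strand), a counterpart of bacterial L33. It stood at 49.0, 46.9 and 62.0 CPM in the Th1 cultures and at 30.0, 29.6 and 26.5 CPM with ALX-5407. The groups did not overlap, and the log2 fold change was -0.87 (SE 0.103, adjusted p = 3.81e-06, edgeR). In its main transcript of 478 bases, 37.0% lies inside exons of Gm43809 on the same strand, which is listed at 0 counts in every library, so reads that fall on both cannot be assigned to one of them.

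Mrpl48 (chr7:100545751-100608301, - strand) encodes a mitochondria-specific protein of the central protuberance, the crown of the large subunit. Its levels were 48.9, 48.9 and 49.3 CPM in Th1 cultures and 34.3, 31.7 and 30.3 CPM with ALX-5407. The Th1 cultures stood close together, and the gap to the highest ALX-5407 culture was wider than the range of either group (log2 fold change -0.61, SE 0.0798, adjusted p = 1.11e-05, edgeR). Mrpl32, whose protein is matured by the mitochondrial m-AAA protease before it joins the large subunit, fell from 35.7, 44.3 and 36.8 CPM to 28.3, 23.5 and 23.8 CPM (log2 fold change -0.63, SE 0.103, adjusted p = 0.000106, edgeR). Mrpl54, a mitochondria-specific protein near the base of the stalk, fell from 35.2, 33.2 and 28.1 CPM to 23.1, 20.96 and 17.1 CPM (log2 fold change -0.66, SE 0.115, adjusted p = 0.00019, edgeR). Neither gene had an ALX-5407 culture above its lowest Th1 culture, though in Mrpl54 the cultures were spread within both groups.

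A pair of abundant large subunit genes fell by a smaller margin. Mrpl45 (chr11:97315716-97329920, + strand) encodes the protein at the mouth of the exit tunnel that holds the ribosome at the inner membrane. It was the member with most reads, at 134, 127 and 119 CPM in Th1 cultures and 93.7, 100.1 and 96.3 CPM with ALX-5407 (log2 fold change -0.39, SE 0.0719, adjusted p = 0.000321, edgeR). Mrpl9, a counterpart of bacterial L9, stood at 93.4, 89.0 and 87.9 CPM and at 68.7, 66.5 and 69.0 CPM (log2 fold change -0.40, SE 0.0697, adjusted p = 0.000164, edgeR). In both genes the groups lay clearly apart. Mrpl14, chosen after its values were seen because its log2 fold change was as low as that of Mrpl54, was at 36.4, 34.3 and 31.7 CPM and at 25.3, 23.1 and 16.4 CPM (log2 fold change -0.66, SE 0.126, adjusted p = 0.000425, edgeR). ALX-5407 replicate 3 was the lowest culture for Mrpl14, as it was for Mrpl33, Mrpl48 and Mrpl54.

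The largest rise among all members was that of Mrpl28 (ENSMUSG00000024181, chr17:26123520-26126613, + strand), a counterpart of bacterial L28. Its levels were 24.5, 22.2 and 22.7 CPM in Th1 cultures and 34.7, 34.4 and 34.7 CPM with ALX-5407. The ALX-5407 cultures were nearly equal, and the fold was 1.49 (log2 fold change 0.58, SE 0.0851, adjusted p = 3.54e-05, edgeR). Mrpl38 and Mrpl46 encode mitochondria-specific proteins of the central protuberance, as Mrpl48 does, but they moved the other way. Mrpl38 rose from 23.0, 21.9 and 23.1 CPM to 32.7, 31.0 and 29.3 CPM (log2 fold change 0.45, SE 0.088, adjusted p = 0.000508, edgeR). Mrpl46 rose from 15.9, 15.9 and 21.1 CPM to 25.4, 25.2 and 22.2 CPM (log2 fold change 0.46, SE 0.117, adjusted p = 0.00409, edgeR), and here 1 Th1 culture came close to the lowest ALX-5407 culture.

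Mrpl41, Mrpl43 and Mrpl2 were the other large subunit genes with the smallest p among the risers. Mrpl2, a counterpart of bacterial L2, which lies near the peptidyl transferase centre, went from 30.3, 27.9 and 28.8 CPM to 37.1, 37.3 and 32.1 CPM (log2 fold change 0.29, adjusted p = 0.0123, edgeR). Mrpl41 had a log2 fold change of 0.37 (SE 0.109, adjusted p = 0.0102, edgeR) and Mrpl43 one of 0.35 (SE 0.101, adjusted p = 0.0097, edgeR), with no overlap between groups in either. In the main transcript of Mrpl43, 27.5% lies opposite exons of Twnk, the mitochondrial DNA helicase, which also rose (log2 fold change 0.61). The strand setting of the counting is not given in the sources used here, so reads of the pair cannot be told apart.

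Among the 29 small subunit genes, 9 were called higher, 8 lower and 12 in neither direction. Mrps26 (ENSMUSG00000037740, chr2:130563742-130568695, + strand), specific to mitochondria, rose most. It was at 26.0, 23.8 and 22.4 CPM in Th1 cultures and at 38.4, 37.2 and 30.8 CPM with ALX-5407 (log2 fold change 0.56, SE 0.10, adjusted p = 0.000236, edgeR). The lowest ALX-5407 culture was still above the highest Th1 culture. Mrps2, a counterpart of bacterial S2, went from 19.5, 20.2 and 19.8 CPM to 27.8, 25.7 and 27.9 CPM (log2 fold change 0.45, SE 0.0898, adjusted p = 0.000569, edgeR), with all Th1 cultures within 1 CPM of each other. Mrps27, a pentatricopeptide repeat protein, went from 18.7, 19.1 and 20.3 CPM to 26.4, 24.8 and 27.2 CPM (log2 fold change 0.43, SE 0.092, adjusted p = 0.00111, edgeR).

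Mrps23 and Mrps10 rose less but with little spread. Mrps23 stood at 42.7, 43.5 and 42.4 CPM in Th1 cultures and at 53.9, 55.3 and 52.3 CPM with ALX-5407 (log2 fold change 0.33, SE 0.0737, adjusted p = 0.00158, edgeR). Mrps10, a counterpart of bacterial S10, had a log2 fold change of 0.31 (SE 0.0789, adjusted p = 0.00435, edgeR). Mrps12, the counterpart of the decoding protein S12, was at 12.1, 13.6 and 13.0 CPM and at 19.7, 18.7 and 13.8 CPM (log2 fold change 0.43, SE 0.13, adjusted p = 0.0127, edgeR). Its ALX-5407 replicate 3 lay just above the highest Th1 culture, and the call was lost in 4 of 17 alternatives of the processing.

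Of the Mrps genes that fell, Mrps30 (ENSMUSG00000021731, chr13:118378381-118387252, - strand) fell most. It stood at 40.9, 40.2 and 45.9 CPM in Th1 cultures and at 30.6, 28.6 and 32.3 CPM with ALX-5407 (log2 fold change -0.47, SE 0.0869, adjusted p = 0.000291, edgeR). Despite its name, its protein sits in the large subunit. Mrps6, a counterpart of bacterial S6, went from 27.9, 28.3 and 25.7 CPM to 19.8, 19.9 and 20.1 CPM (log2 fold change -0.45, SE 0.0897, adjusted p = 0.000543, edgeR). The ALX-5407 cultures of Mrps6 were nearly equal. In GENCODE M21, exons of 2 other genes overlap Mrps6, and together they cover 36.1% of its main transcript, on the same strand. The larger overlap is with Gm49711, but no gene of that name was found in the count file.

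Mrps5, which lines the entry path of the mRNA, was at 56.0, 61.9 and 52.4 CPM and at 47.7, 46.1 and 41.7 CPM (log2 fold change -0.33, SE 0.0848, adjusted p = 0.00418, edgeR). Mrps33 had the same log2 fold change of -0.33 (SE 0.0965, adjusted p = 0.00972, edgeR) and Mrps15 one of -0.25 (SE 0.0757, adjusted p = 0.0117, edgeR). None of the Mrps5, Mrps33 and Mrps15 values overlapped between groups. Mrps36, whose protein was first described as ribosomal and belongs to the 2-oxoglutarate dehydrogenase complex, had a log2 fold change of -0.36 (SE 0.113, adjusted p = 0.0153, edgeR). Of the 28 called members named by the rule in the methods, 19 kept their call in all 17 alternatives of the processing. The 9 that did not were Mrpl2, Mrpl10, Mrpl41, Mrps12, Mrps15, Mrps18c, Mrps33, Mrps35 and Mrps36. The rule names many members for a small p, which favours kept calls. Of the calls over all members (21 higher, 23 lower), 24 were kept at an adjusted p under 0.01. Without ALX-5407 replicate 1, 29 were kept, and without ALX-5407 replicate 2, 31 were.

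**Figure D2:**
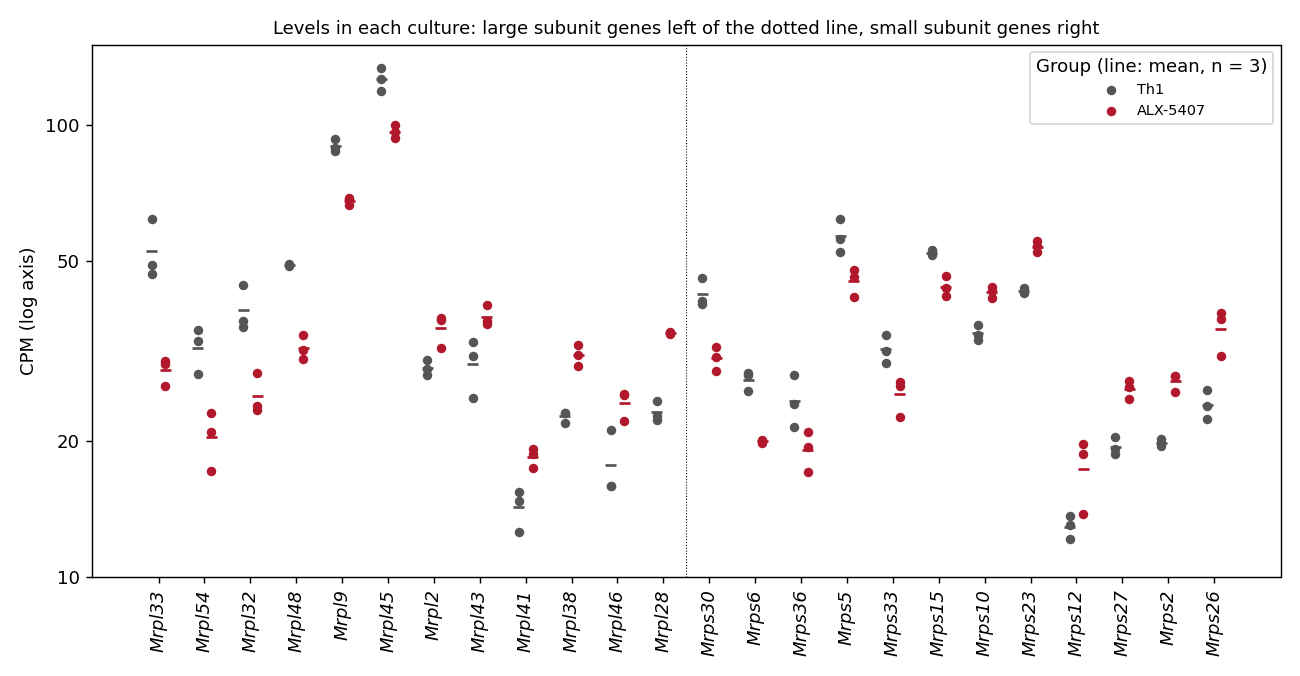
CPM (log axis) in each of the 6 cultures for the 6 called members with the smallest p in each direction and subunit, large subunit left of the dotted line. Points are cultures (grey Th1, red ALX-5407) and short lines are means of 3. For each gene shown the colours do not overlap, and ALX-5407 replicate 3 of Mrps12, at 13.8 CPM, lies closest to the other group.

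Members differed far more in level than in change. Per length, as TPM (reads relative to gene length and library size, with the exon length of the count file), the mean of 6 cultures ran from 9.28 for Mrpl47 to 144 for Mrpl18, a span of 15.5-fold. The large subunit genes with the highest TPM were Mrpl18, Mrpl45 at 132 and Mrpl34 at 124. In the small subunit these were Mrps21 at 120, Mrps23 at 96.5 and Mrps15 at 87.3, and the lowest were Mrps25 at 9.47, Mrps35 at 12.4 and Mrps10 at 14.9. These ranks depend on the length used: with the length of the main transcript in place of all merged exons, 5 of the 10 highest members were shared the rank correlation over members was 0.628, and the span was 29.4-fold. Mrpl33, for example, has 7326 merged exon bases for a main transcript of 478 bases.

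Mrpl18, a counterpart of bacterial L18, was lower with ALX-5407, at 72.0, 86.8 and 69.5 CPM against 54.8, 57.6 and 54.6 CPM (log2 fold change -0.45, SE 0.0861, adjusted p = 0.000415, edgeR). Mrpl34 (log2 fold change 0.21, adjusted p = 0.106, edgeR), Mrps21 (-0.19, adjusted p = 0.198) and the low Mrpl47 (0.26, adjusted p = 0.0875) and Mrps25 (0.11, adjusted p = 0.472) were not called, and Mrps35 was called lower (-0.23, adjusted p = 0.0425), a call kept in 9 of 17 alternatives. Over the 77 tested members the log2 fold change and the mean count had a Spearman correlation of -0.31, a description over genes of the same 6 libraries. It was -0.0092 over 12413 protein-coding genes.

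**Figure D3:**
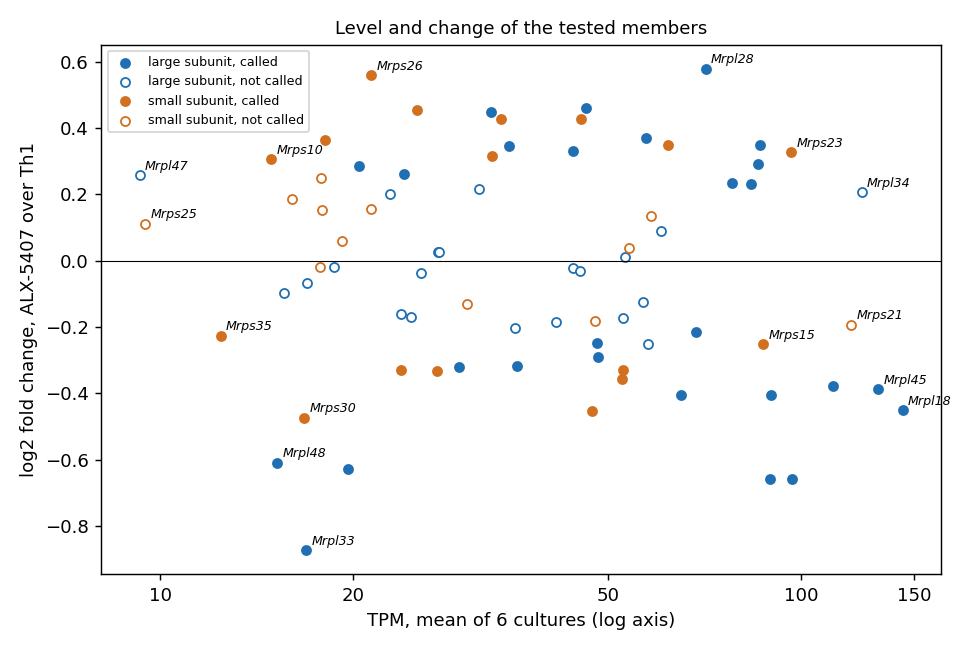
Mean TPM of 6 cultures (x axis, log) against the log2 fold change (y axis) for the 77 tested members, blue for the large and orange for the small subunit, filled where called. Called and uncalled members lie at both low and high levels, and of the 2 members with most TPM, Mrpl18 and Mrpl45, both fell.

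Mrpl53 was the only member that was not tested. No read was counted on it in any of the 6 libraries, against a lowest mean of 316 counts for any other member. Its gene (chr6:83109040-83109939, + strand) lies with 100% of its main transcript inside exons of Gm42688, a protein-coding gene on the same strand, which had 10, 8 and 6 counts in Th1 cultures and 6, 26 and 13 with ALX-5407. A count of 0 on Mrpl53 therefore gives no limit on its RNA, since reads on shared exons could be assigned to neither gene.

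The balance of the subunits was compared by the reads they hold. As a share of all counted reads, the members held 0.257% ± 0.00824 in Th1 cultures and 0.254% ± 0.00864 with ALX-5407 (SD, n = 3 each), and the groups overlapped. On the other scales the total was apart, in opposite directions: the members' summed level was 2591, 2624 and 2672 CPM in Th1 cultures and 2574, 2525 and 2384 CPM with ALX-5407, and 3391, 3381 and 3553 TPM against 3847, 3732 and 3628 TPM. Summed over Mrpl genes, the levels were 1773, 1808 and 1814 CPM in Th1 cultures and 1711, 1659 and 1591 CPM with ALX-5407, and the groups did not overlap. Their share of all counted reads did overlap, at 0.1727%, 0.1744% and 0.1812% in Th1 cultures and 0.1739%, 0.1685% and 0.1634% with ALX-5407. Summed over Mrps genes the levels were 818, 816 and 858 CPM and 864, 867 and 793 CPM, which overlapped. The ratio of Mrpl to Mrps counts, which no scaling of libraries can change, was 2.17, 2.22 and 2.11 in Th1 cultures and 1.98, 1.91 and 2.01 with ALX-5407.

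Every ALX-5407 culture was thus below every Th1 culture in that ratio (mean 2.17 ± 0.0516 against 1.97 ± 0.0476, SD, n = 3 each). Such a gap was common among single genes: 27.1% of all genes tested lay wholly below and 28.4% wholly above with ALX-5407. No test was made of the ratio, and its versions below share the same 6 libraries. With Mrps30 and Mrps18a counted in the large subunit, where their proteins sit, and Mrps36 left out, it was 2.53, 2.58 and 2.45 against 2.25, 2.19 and 2.28. It stayed apart without the 18 members that share much sequence with another gene (2.19, 2.21 and 2.11 against 2.03, 1.95 and 2.06) and without the 4 Mrpl genes with most reads (1.71, 1.79 and 1.71 against 1.63, 1.57 and 1.64), both left out after the data were seen. These 4 were Mrpl45, Mrpl9 and Mrpl30, which fell, and Mrpl4, which rose (by 10.6 CPM). Mrpl33 and Mrpl18, which also fell, stayed in. With each gene given equal weight, the mean log2 CPM of the large subunit genes exceeded that of the small subunit genes by 0.37, 0.42 and 0.34 in Th1 cultures and by 0.28, 0.22 and 0.28 with ALX-5407.

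Per length, whether the groups overlapped depended on the members counted. Summed TPM of Mrpl over Mrps genes was 2.39, 2.46 and 2.22 in Th1 cultures and 2.20, 2.14 and 2.23 with ALX-5407, which overlapped. By placement the TPM ratio was 2.67, 2.77 and 2.46 against 2.41, 2.37 and 2.44, and without the members that share sequence it was 2.79, 2.80 and 2.61 against 2.50, 2.43 and 2.53, both without overlap. Without the 4 Mrpl genes with most reads it overlapped again, at 2.00, 2.10 and 1.88 against 1.90, 1.85 and 1.91. Single genes carried much of the fall in reads, with differences between group means of -29.8 CPM for Mrpl45, -23.9 CPM for Mrpl33, -22.0 CPM for Mrpl9 and -20.4 CPM for Mrpl18. TPM sums were higher with ALX-5407 for both subunits, at 2391, 2405 and 2448 against 2645, 2545 and 2506 for Mrpl genes and at 1000.3, 976 and 1105 against 1202, 1187 and 1122 for Mrps genes. The direction of the large subunit sum thus depends on the scale. Cytosolic ribosomal protein genes, which are short and abundant, held 10.5% ± 0.234 of counts in Th1 cultures and 7.74% ± 0.578 with ALX-5407 (SD, n = 3 each), and their part in the TPM sums was not tested.

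**Figure D4:**
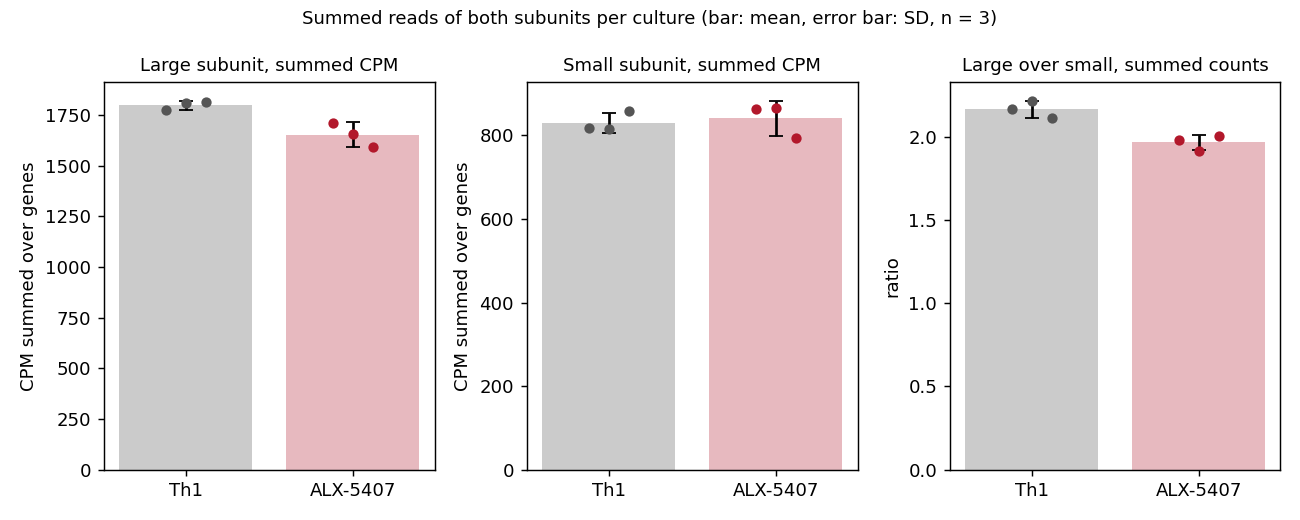
Summed CPM of the Mrpl genes (left) and the Mrps genes (middle), and the ratio of their summed counts (right), in each culture (points), with the mean (bar) and SD (error bar) of 3 cultures. The ratio lay between 2.11 and 2.22 in Th1 cultures and between 1.91 and 2.01 with ALX-5407, while the Mrps sums overlapped.

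In medians of single genes the large subunit stood below the small subunit. The median log2 fold change was -0.053 over the large subunit genes and 0.11 over the small subunit genes. The first was 0.0059 with total counts as scaling, which moves all genes alike. Relative to the median of all genes tested, the large subunit stood at -0.058 and the small subunit at 0.11 with TMM, total counts and upper quartile scaling, and at -0.11 and 0.059 with protein-coding genes alone. By placement in the ribosome the counts were 12 higher and 16 lower of 50 large subunit genes (median -0.053) and 9 higher and 6 lower of 26 small subunit genes (median 0.12). By origin, the 46 members with a bacterial homologue (12 higher, 13 lower, median -0.053) and the 30 tested mitochondria-specific members (9 higher, 9 lower, median 0.069) had like shares of calls. The 10 mitochondria-specific proteins of the small subunit had the highest median of the classes, 0.20, with 4 called higher and 2 lower. No test was made of these differences.

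Members with linked roles did not share a direction. The stalk that recruits translation factors is formed by the products of Mrpl10, Mrpl11 and Mrpl12, with Mrpl53 and Mrpl54 at its base. Mrpl10 rose from 41.3, 45.5 and 40.1 CPM to 49.2, 50.1 and 49.6 CPM (log2 fold change 0.23, adjusted p = 0.0226, edgeR) and Mrpl54 fell, as given above. Mrpl12 (-0.02, adjusted p = 0.866, edgeR) and Mrpl11 (-0.17, adjusted p = 0.161) were not called. The call of Mrpl10 was kept in 10 of 17 alternatives.

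The 3 genes of the S18 family also differed. Mrps18c was called lower at 9.43, 9.98 and 12.2 CPM against 8.41, 8.12 and 8.56 CPM (log2 fold change -0.33, SE 0.133, adjusted p = 0.0492, edgeR), a call kept in 7 of 17 alternatives. Mrps18b (0.25, adjusted p = 0.0773) and Mrps18a (0.16, adjusted p = 0.345) were not called. Mrpl58, a peptidyl-tRNA hydrolase that rescues stalled ribosomes and is built into the large subunit, was at 31.8, 26.0 and 29.4 CPM and at 31.7, 29.7 and 27.5 CPM, with overlapping groups (log2 fold change 0.027, adjusted p = 0.842).

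The mitochondrial ribosome has further proteins whose genes bear other names, and of 5 such genes 1 was called (20%, against 47.7% of all genes tested). Aurkaip1, a small subunit protein, fell from 69.0, 64.4 and 76.1 CPM to 57.7, 55.5 and 46.9 CPM (log2 fold change -0.39, SE 0.0901, adjusted p = 0.00201, edgeR). Dap3, a GTP-binding protein of the small subunit, was at 110, 118 and 126 CPM and at 113, 121 and 107 CPM, with overlapping groups (log2 fold change -0.054, adjusted p = 0.598). Ptcd3 (0.21, adjusted p = 0.0969), Chchd1 (0.044, adjusted p = 0.784) and Gadd45gip1 (-0.077, adjusted p = 0.569) were not called either. The RNAs of the ribosome itself, mt-Rnr1 (0.058, adjusted p = 0.691) and mt-Rnr2 (0.27, adjusted p = 0.0887), were not called. Together they stood at 1308, 1393 and 2016 CPM in Th1 cultures and at 1777, 1771 and 1894 CPM with ALX-5407. The labels give capture on poly-T beads and the methods give depletion of ribosomal RNA. Reads on these 2 RNAs may thus not follow their levels in the cells.

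Genes that assemble and run the ribosome moved both ways too. Of 28 tested assembly genes 9 were called higher and 3 lower (median log2 fold change 0.10). These shares were 32.1% and 10.7%, against 24.5% and 23.2% of all genes tested. The largest rise was that of Mpv17l2, an inner membrane protein needed for assembly, from 9.43, 7.85 and 8.06 CPM to 15.9, 18.1 and 14.3 CPM (log2 fold change 0.93, SE 0.128, adjusted p = 1.75e-05, edgeR). Ddx28, an RNA helicase of the large subunit's assembly, rose (0.65, adjusted p = 5.95e-05), as did Lrpprc, which stabilises mitochondrial mRNAs (0.48, adjusted p = 5.7e-05), and Rpusd4, a pseudouridine synthase acting on the large ribosomal RNA, fell (-0.53, adjusted p = 5.98e-05). Of 13 tested translation factors 6 were called higher (46.2%) and 3 lower (23.1%), with a median of 0.050. Taco1, a translational activator of Cox1, rose (0.55, adjusted p = 0.00211, edgeR). Guf1, which encodes a back-translocating elongation factor (-0.50, adjusted p = 0.000102), Mrrf, the ribosome recycling factor (-0.49, adjusted p = 0.000462), and Mtif3, an initiation factor (-0.51, adjusted p = 0.00293, edgeR), fell.

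Upstream of the ribosome, 4 of 10 genes for copying and transcribing mitochondrial DNA were called higher and 1 lower (median -0.13). These shares were 40% and 10%, against 24.5% and 23.2% of all genes tested. Polrmt, the mitochondrial RNA polymerase, rose (log2 fold change 0.59, adjusted p = 7.74e-05, edgeR), as did Twnk (0.61, adjusted p = 0.000139) and Tfam, the packaging and transcription factor (0.32, adjusted p = 0.00435), and Polg2, the accessory subunit of the DNA polymerase, fell (-0.67, adjusted p = 0.00032). Of 10 tested regulators of mitochondrial biogenesis 7 were higher and 2 lower (70% and 20%, median 0.28). Myc rose from 169, 180 and 175 CPM to 242, 248 and 287 CPM (0.57, SE 0.0773, adjusted p = 1.62e-05) and Pprc1, a PGC-1 related coactivator, rose by 0.51 (SE 0.0723, adjusted p = 2.42e-05). Max, the partner of Myc (-0.48, adjusted p = 0.000185), and Gabpb2, a subunit of the GABP complex (-0.30, adjusted p = 0.00197), fell.

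The messenger RNAs that this ribosome translates were mostly lower. Of 12 tested mitochondrially encoded mRNAs 8 were called lower (66.7%, against 23.2% of all genes tested) and 2 higher (16.7%, against 24.5%), with a median log2 fold change of -0.53. The values ran from -2.23 to 1.13. By the study's fold threshold 3 were lower and 1 was higher. Those with the smallest p were mt-Co1, subunit 1 of cytochrome c oxidase (-0.70, SE 0.0711, adjusted p = 7.23e-07, edgeR), mt-Cytb, cytochrome b (-1.17, SE 0.10, adjusted p = 1.37e-07), mt-Co2 (-1.77, SE 0.153, adjusted p = 1.45e-07) and mt-Atp6 (-2.23, SE 0.179, adjusted p = 7.11e-08). All mitochondrially encoded genes together held 2.86% ± 0.230 of counts in Th1 cultures and 2.00% ± 0.0552 with ALX-5407 (SD, n = 3 each), and the mean TPM of the mRNAs ran from 50.7 to 30152.

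The cytosolic ribosome differed from this pattern. Of its 76 tested protein genes 71 were called lower (93.4%, against 23.2% of all genes tested) and 0 higher (also 0 at an unadjusted p under 0.05). The median log2 fold change was -0.51 and every value was below 0, where 40 of 77 mitochondrial members were below 0. The cytosolic median was -0.51 in the large and -0.52 in the small subunit. These values share the same libraries and scaling as those of the members and are set side by side as a description, with no test between the lists.

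**Figure D5:**
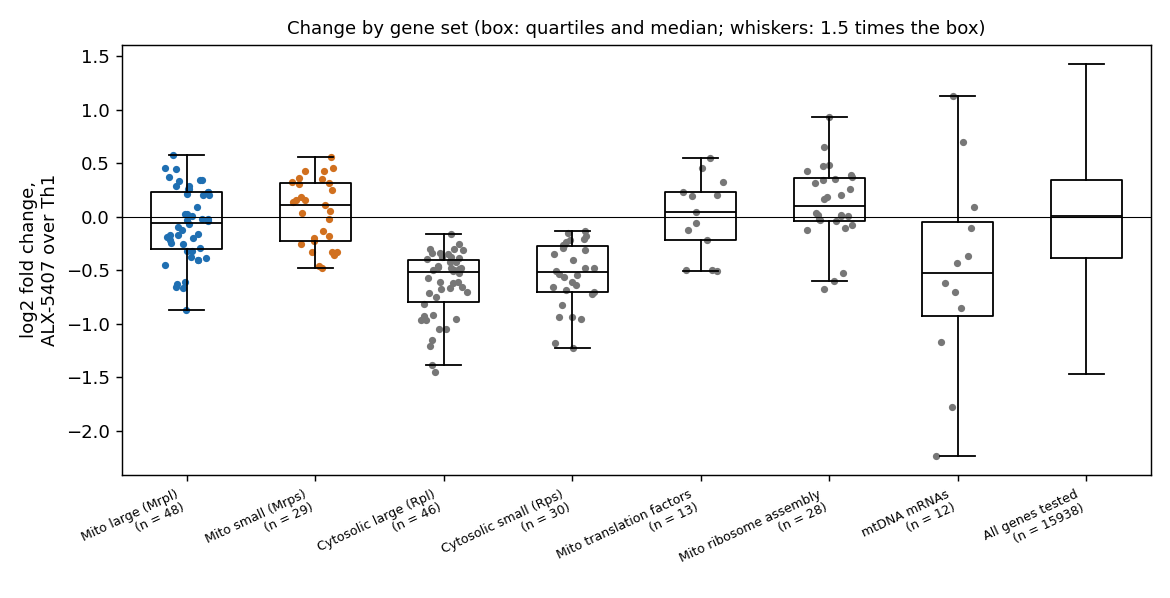
Log2 fold change (y axis, ALX-5407 over Th1) of the tested genes of each set, as points with a box for the quartiles and the median; for all genes tested the box alone is drawn. The mitochondrial subunits have medians of -0.053 and 0.11, on either side of the 0.0053 of all genes, while the cytosolic subunits lie wholly below 0.

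What the members share beyond their names was related only loosely to their change. The GC content of the main transcript had a Spearman correlation of 0.29 with the log2 fold change over 77 members and 0.044 over 12413 protein-coding genes, with a median GC of 52.5% in members called higher, 48.4% in those called lower and 49.7% in the others. Coding length gave 0.12 over members, whose coding sequences are short (median 588 bases), 0.18 over protein-coding genes and 0.57 over cytosolic ribosomal protein genes. These are descriptions over genes that share 6 libraries. The members lie on 17 chromosomes.

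Many members lie close to other genes. Of them, 25 start within 1000 bases of a gene on the opposite strand, and in 14 of these 25 the neighbour's log2 fold change had the same sign (Spearman correlation 0.18 over the pairs). Mrpl46 and Mrps11 are such a pair, 30 bases apart, with Mrpl46 called higher and Mrps11 not called (0.059, adjusted p = 0.751). Mrpl14 and Tmem63b, 63 bases apart and chosen after their values were seen, both fell (-0.66 and -0.74). In 12 members at least 20% of the main transcript lies inside exons of other genes, and in 6 at least 50% is matched at 95% identity by processed pseudogenes. Mrps34 has 62.7% of its main transcript opposite exons of other genes, and its largest overlap is with Mapk8ip3. Mrps34 was called higher (0.37, adjusted p = 0.044), while Mapk8ip3 fell (-1.02). With the 18 members of either kind left out, 17 were called higher and 18 lower.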

How the data were processed

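RNA was measured by bulk sequencing in 6 cultures, 3 Th1 and 3 ALX-5407, grouped by the sample titles, which call them biological replicates. The authors deposited raw counts, whole reads per gene with no normalization, and the file holds gene coordinates and lengths. Per the labels, mRNA was captured on poly-T beads, whereas the methods describe depletion of ribosomal RNA. The submitters' processing notes name fastp, HISAT2 2.0.5, featureCounts 1.5.0-p3 and mm10; the strand setting and the treatment of reads that map to several places are not given in the sources used here, which affects overlapping genes and genes with pseudogenes.

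Library totals lay between 30801753 and 36727788. edgeR 4.0.16 in R 4.3.3 was run on all genes with filterByExpr (minimum count 10, minimum total 15), TMM scaling, the quasi-likelihood test of group alone and Benjamini-Hochberg adjustment over 15938 genes; calls are at an adjusted p under 0.05. The biological coefficient of variation was 0.0978. CPM use TMM-scaled library sizes and TPM use the file's gene length. Sums, shares and medians over lists are descriptions. The procedure was tested on simulated counts. Of 87 genes given an absolute log2 fold change of 0.4 it called 25, and of 50 such genes with a mean of 300 counts or more, also 25. At a log2 fold change of 1 it called 80 of 109, and 64 of 64 with a mean of 300 or more. Changes of the size seen in most members can thus be missed. Annotation came from GENCODE M21 on GRCm38, promoters from RefSeq (GRCm38.p6), which were not found for 9 members, and pseudogene matches from BLAST 2.17.0 (95% identity). Python 3.11.15 with matplotlib 3.10.9 made the plots.

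The members and lists were chosen with earlier results of these data known. Named are, in each subunit, the 6 called members with the smallest p in each direction and the 3 with the highest and the lowest TPM, then Mrps18a, Mrps18b, Mrps18c, Mrps30, Mrps36, Mrpl12, Mrpl58, the stalk genes, untested members, all ribosomal genes of other names, both ribosomal RNAs and the 4 called genes with the smallest p of each further list. Mrpl4, Mrpl14, Mrpl17, Mrpl22, Mrpl30, Mrpl39, Mrps11, Mrps34, Tmem63b and Mapk8ip3 were added after their values were seen. Alternatives were other scalings, DESeq2 1.42.0, limma-voom (limma 3.58.1), other filters, protein-coding genes alone, a stricter threshold, a replicate block, placement and each replicate left out; leaving out members that share sequence, or the 4 Mrpl genes with most reads, was added after seeing the data.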

Additional observations from a re-analysis of the deposited data

How the results depend on the processing

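No called member turned its direction in any alternative run. Counts of calls that moved by over 1.5 times and medians that moved by over the spread of replicates were these. With upper quartile scaling 7 large subunit genes were higher, and the small subunit median was 0.059. With total counts the median was 0.038 over all members and 0.17 over the small subunit. At an adjusted p under 0.01, 9 members were higher and 15 lower; 4 large and 5 small subunit genes were higher and 4 small subunit genes lower. Without members that share sequence the small subunit median was 0.059. With each library left out in turn, 10 to 23 members were higher and 13 to 23 lower, 5 to 14 large subunit genes were higher and 10 to 16 lower, and 5 to 10 small subunit genes were higher and 3 to 7 lower, with medians from -0.058 to 0.0096 (all), -0.095 to -0.041 (large) and 0.021 to 0.14 (small). The calls higher were fewest without ALX-5407 replicate 1 (10) and fell to 13 without ALX-5407 replicate 2, Th1 replicate 1 or Th1 replicate 2; the calls lower were fewest without ALX-5407 replicate 3 (13). The cause was not tested, beyond there being fewer samples. DESeq2 called 19 higher and 21 lower, all 40 of them also called by edgeR. With the replicate number as a block, 22 members were higher and 24 lower (44 shared with the fit without it), 13 and 16 in the large and 9 and 8 in the small subunit, with medians of -0.020, -0.052 and 0.10. Deviations of samples with the same number correlated at 0.024, 0.023 and 0.13, so the numbers were not taken as pairs. Mrps18c had the lowest mean of the tested members (316 counts) and a standard error of 0.133, so smaller changes of this gene were not detectable at this depth.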
